A study of Mus musculus with 8 samples.

Results

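The genes of MHC class II antigen presentation and their transcriptional coactivator Ciita were followed in primary mouse microglia. The 8 genes are Cd74, H2-Aa, H2-Ab1, H2-Eb1, H2-DMa, H2-DMb1, H2-DMb2 and Ciita, and they were found in the count table by Ensembl identifier through their GENCODE vM21 symbols, as 8 of its 52636 gene identifiers. Wild-type microglia, C57BL/6 by the labels and from C57BL/6N pups by the methods, were compared after 24 h with 5 µg/ml LPS, the bacterial lipopolysaccharide sensed by Tlr4, or with vehicle, in 4 libraries each, which the labels call biological replicates. Both groups were kept in DMEM with 10% serum and 10 ng/ml CSF-1, a growth factor on which microglia depend. The cells came from mixed glial cultures of newborn mice by shake-off, so they are cultured cells that had left the brain before treatment. The labels do not say how many animals each library represents.

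MHC class II molecules carry peptides of ingested proteins to the surface for CD4+ T cells. They are pairs of an alpha and a beta chain, here H2-Aa with H2-Ab1 for the I-A molecule, while H2-Eb1 is the beta chain of I-E. The chains assemble on the invariant chain Cd74, which blocks their groove, and the H2-DM heterodimer later helps to exchange the remaining invariant chain peptide for other peptides. Ciita does not bind DNA itself: it docks on RFX, CREB and NF-Y factors that sit on the X and Y boxes of class II promoters, and is regarded as the master switch of the whole group, whereas its relative Nlrc5 acts on class I genes.

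The libraries held 20071921 to 30604447 counts. Levels are given as CPM (counts per 1e6 counts) after TMM scaling, which corrects the library size for a shift in RNA composition, and the TMM factors were 1.21 to 1.32 in vehicle and 0.70 to 0.83 in LPS libraries. A quasi-likelihood test in edgeR, adjusted by Benjamini-Hochberg, was run on the 13847 genes left by a low-count filter. Of the 8 genes, 4 passed the filter. H2-Ab1 rose, H2-DMb1 fell, and Cd74 and H2-DMa did not pass the test. The background was high, since 30.3% of tested genes were called higher and 33.8% lower, so 1 call each way among 4 genes is near that background. The other 4 genes, H2-Aa, H2-Eb1, H2-DMb2 and Ciita, were too sparse for the filter, and their values come from the same fit run on all 25424 genes with a count. There 20.4% of genes were called lower and 16.6% higher, and of the 4 Ciita was called lower and none higher. RNA was taken from whole cultures, where fewer cells of a type and less RNA per cell cannot be told apart.

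The scaling matters for these genes. When libraries were scaled by their totals alone, an alternative chosen after seeing the data, the log2 fold change of the median tested gene moved by -0.68, and the calls went from 4191 higher and 4686 lower to 1988 and 8457. Upper quartile scaling moved it by -0.16 and DESeq2 size factors by 0.06. The rise of H2-Ab1 and the falls of H2-DMb1 and Ciita were called under all 4 scalings. Cd74, H2-DMa, H2-Aa and H2-DMb2 were not called under the other 3 scalings and were called lower with library totals alone.

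**Figure D1:**
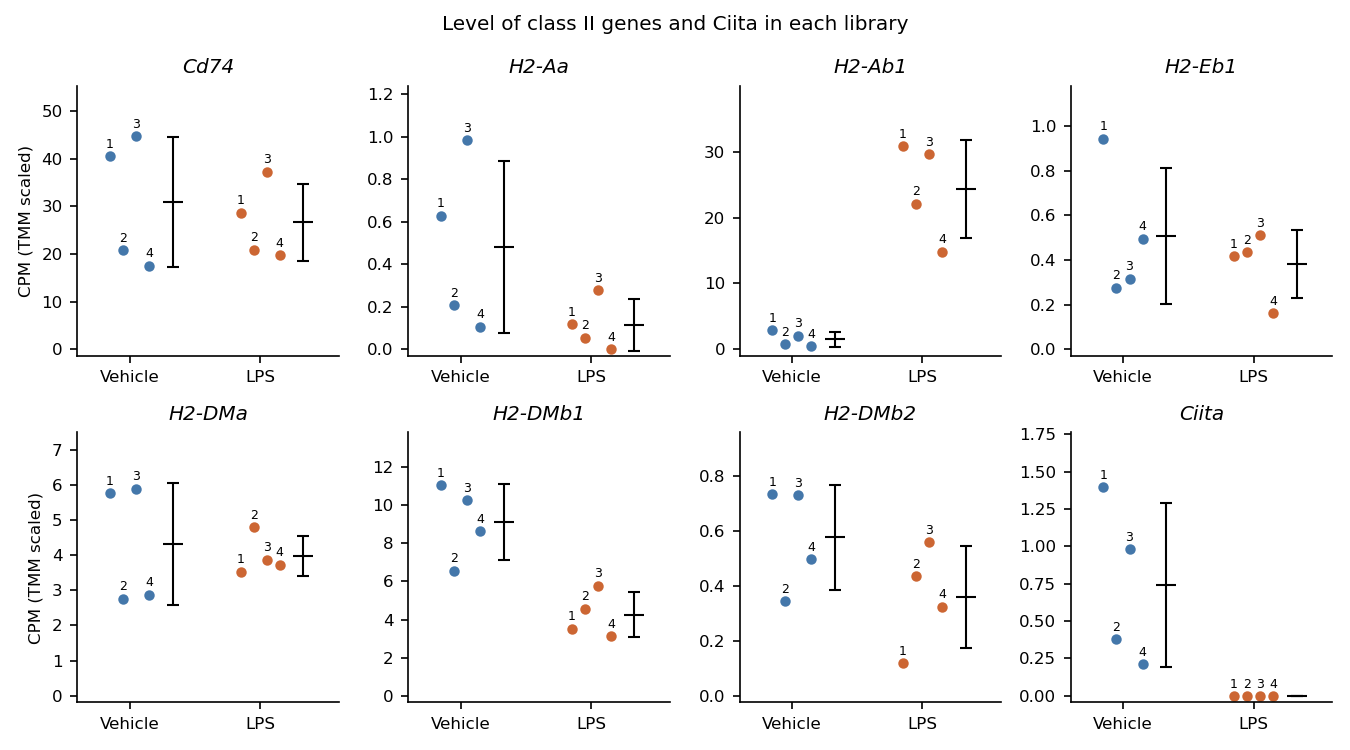
Level of the 8 genes in each library, in TMM-scaled CPM on a linear axis for each gene. Points are libraries with their replicate number, and the bar beside them is the mean ± SD of the 4 libraries. H2-Ab1 in the LPS libraries lies between 14.8 and 30.8 CPM, above every vehicle library, and Ciita is at 0 in every LPS library.

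H2-Ab1, the beta chain of I-A, showed the only rise among the 8 genes. In vehicle replicates 1 to 4 it was at 2.87, 0.795, 2.06 and 0.461 CPM, from 82, 23, 65 and 13 counts. In LPS replicates 1 to 4 it was at 30.8, 22.1, 29.6 and 14.8 CPM, from 515, 406, 635 and 274 counts. The groups did not overlap. The mean went from 1.55 ± 1.12 to 24.3 ± 7.42 CPM (SD, n = 4), a log2 fold change of 3.97 ± 0.50 (SE), or 15.6-fold (edgeR adjusted p = 9.1e-05). The highest vehicle library stood 6.22 times above the lowest, and the highest LPS library 2.08 times above the lowest. The gene (ENSMUSG00000073421, chr17:34257689-34269419, plus strand, GRCm38) overlaps no exon of another gene and shares none of the 50-base windows of its transcripts with a transcript of another gene.

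H2-Aa, the alpha chain that pairs with H2-Ab1, did not show this rise. Its counts were 18, 6, 31 and 3 in vehicle replicates 1 to 4, and 2, 1, 6 and 0 in LPS replicates 1 to 4. On the CPM scale the means were 0.481 ± 0.404 and 0.113 ± 0.121 (SD, n = 4). The groups overlapped, since LPS replicate 3 exceeded vehicle replicates 2 and 4. In the fit without the filter the log2 fold change was -2.03 ± 0.84 (SE), which missed the threshold (edgeR adjusted p = 0.073). This call depends on the setting. It was made when same-numbered libraries were treated as pairs (replicate block, log2 fold change -2.13, edgeR adjusted p = 0.025). It was also made without vehicle replicate 4 (edgeR adjusted p = 0.037) and without LPS replicate 3 (edgeR adjusted p = 0.033). Over all alternatives the adjusted p of H2-Aa lay between 0.016 and 0.26. H2-Aa (ENSMUSG00000036594) lies at chr17:34282744-34287823 on the minus strand.

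H2-Eb1, the beta chain of I-E, stayed near the limit of counting in both groups. Its counts were 27, 8, 10 and 14 in vehicle replicates 1 to 4 and 7, 8, 11 and 3 in LPS replicates 1 to 4. Apart from vehicle replicate 1 the groups lay in the same range, and the means were 0.508 ± 0.306 and 0.382 ± 0.152 CPM (SD, n = 4). The log2 fold change of -0.43 ± 0.54 (SE) did not pass (edgeR without the filter, adjusted p = 0.53) and was 0.08 without vehicle replicate 1. The gene (ENSMUSG00000060586) lies at chr17:34305867-34316674 on the plus strand.

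Cd74, the invariant chain, was the most abundant of the 8 genes. In vehicle replicates 1 to 4 it was at 40.6, 20.8, 44.7 and 17.6 CPM. In LPS replicates 1 to 4 it was at 28.7, 20.95, 37.3 and 19.7 CPM. The LPS libraries lay inside the range of the vehicle libraries, with means of 30.9 ± 13.7 and 26.7 ± 8.14 CPM (SD, n = 4). The log2 fold change was -0.21 ± 0.33 (SE, edgeR adjusted p = 0.58) and turned to 0.07 without vehicle replicate 3. With library totals alone it was -0.89 (edgeR adjusted p = 0.021). Cd74 (ENSMUSG00000024610) lies at chr18:60803848-60812652 on the plus strand.

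Ciita, the coactivator, went from a low level to no counts at all. The vehicle replicates 1 to 4 held 40, 11, 31 and 6 counts, or 1.40, 0.380, 0.982 and 0.213 CPM. Each of the 4 LPS libraries held 0 counts. A count of 0 allows up to 3 counts in a library, which is 0.140 to 0.179 CPM in the LPS libraries, and covers counting error only. Against the highest of these limits the vehicle mean of 0.743 ± 0.548 CPM (SD, n = 4) is at least 4.14-fold higher. The gene was called lower (edgeR without the filter, adjusted p = 0.00058), and a two-sided exact permutation test of log2(CPM + 0.5) over the 8 libraries gave p = 0.029, the smallest p that 4 against 4 allows. The gene (ENSMUSG00000022504, chr16:10480059-10528418, plus strand) shares 3.45% of its exonic bases with Dexi on the other strand, and whether counting used the strand is not stated in the sources used here. Vehicle replicates 1 and 3, with the most Ciita, were also the highest 2 vehicle libraries for 7 of the 8 genes, the exception being H2-Eb1. In LPS libraries replicates 1 and 3 led for Cd74, H2-Aa and H2-Ab1.

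Among the 2 chains of H2-DM and the second beta chain locus, only H2-DMb1 was called with TMM scaling. H2-DMb1, a beta chain of the peptide exchange factor, was at 11.05, 6.56, 10.3 and 8.65 CPM in vehicle replicates 1 to 4. It was at 3.53, 4.57, 5.78 and 3.14 CPM in LPS replicates 1 to 4, below every vehicle library. The means of 9.13 ± 1.98 and 4.25 ± 1.18 CPM (SD, n = 4) gave a log2 fold change of -1.10 ± 0.24 (SE), 2.14-fold lower after LPS (edgeR adjusted p = 0.0027). H2-DMa, the alpha chain, was at 5.77, 2.76, 5.89 and 2.87 CPM in vehicle and at 3.53, 4.79, 3.87 and 3.73 CPM after LPS, replicates 1 to 4 in each case. Its LPS libraries lay between the high and the low pair of vehicle libraries, with a log2 fold change of -0.12 ± 0.29 (SE, edgeR adjusted p = 0.73). That value was 0.07 without vehicle replicate 1 and 0.12 without vehicle replicate 3, and -0.78 with library totals alone (edgeR adjusted p = 0.031). H2-DMb2 had 21, 10, 23 and 14 counts in vehicle replicates 1 to 4 and 2, 8, 12 and 6 in LPS replicates 1 to 4. The groups overlapped, and the log2 fold change of -0.69 ± 0.51 (SE) did not pass (edgeR without the filter, adjusted p = 0.33), though it was -1.34 with library totals alone (edgeR adjusted p = 0.039).

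Reads of the H2-DM genes are not all separable. Of the 50-base windows of H2-DMb1 (ENSMUSG00000079547, chr17:34153072-34160230, plus strand), 22.7% also occur in H2-DMb2, and 21.2% of those of H2-DMb2 (ENSMUSG00000037548, chr17:34143307-34151555, plus strand) occur in H2-DMb1. Since the authors kept uniquely aligned reads, reads from such windows are lost from both, and the values are lower than the true ones by an unknown share. H2-DMa (ENSMUSG00000037649, chr17:34119541-34139101, plus strand) shares 10.4% of its exonic bases with Brd2 on the other strand, a chromatin reader with a log2 fold change of 1.49 ± 0.16 (SE, edgeR adjusted p = 3.7e-05). The part of Brd2 reads in the H2-DMa count was not tested.

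**Figure D2:**
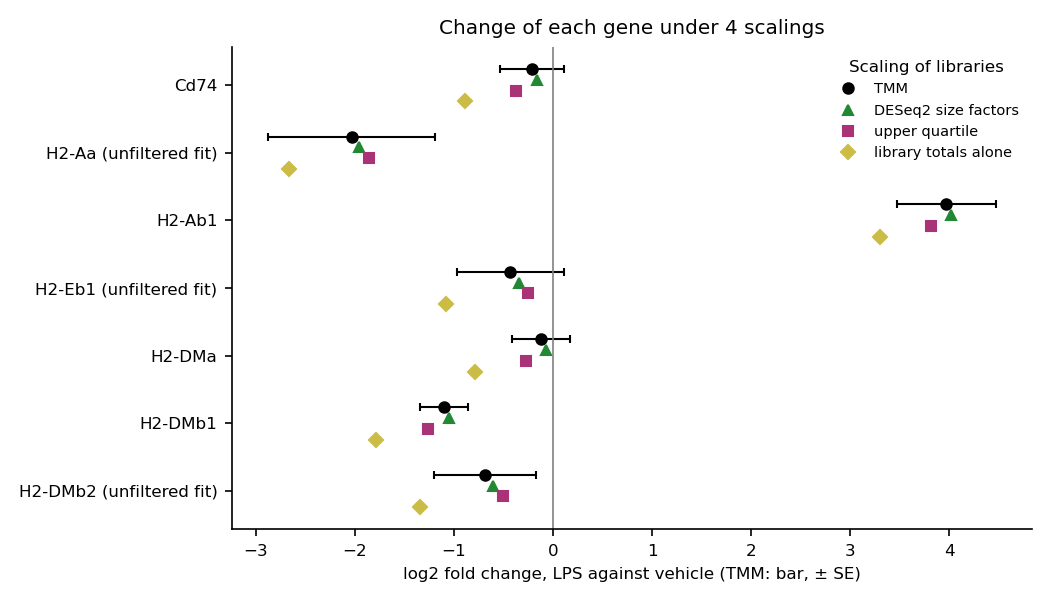
Log2 fold change of 7 of the genes, LPS against vehicle, under 4 scalings of the libraries, with the SE as a bar for TMM scaling. Genes that failed the filter come from the fit without it, and Ciita is left out because its LPS counts are all 0. H2-Ab1 lies at 3.97 and H2-DMb1 at -1.10 with TMM, and library totals alone move every gene to the left.

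To compare genes with each other, counts were divided by exon length and scaled to TPM (transcripts per 1e6). These carry no TMM factor and are read here only within a group. The length was the union of all annotated exons, 3798 bases for H2-Aa and 3448 for H2-DMa, against 1679 for Cd74 and 1681 for H2-DMb1. The order depends on these lengths, and reads lost from H2-DMb1 and H2-DMb2 were not corrected for. In vehicle libraries Cd74 stood first at 78.3 ± 30.1 TPM (SD, n = 4), then H2-DMb1 at 23.4 ± 4.03 TPM and H2-DMa at 5.35 ± 1.84 TPM. H2-Ab1 came next at 2.53 ± 1.74 TPM, before H2-DMb2 at 1.41 ± 0.39 and H2-Eb1 at 1.13 ± 0.64 TPM. H2-Aa at 0.529 ± 0.422 and Ciita at 0.328 ± 0.230 TPM came last. Cd74, H2-DMb1 and H2-DMa did not overlap with one another, and from H2-DMa on each gene overlapped with the next in the order. In LPS libraries H2-Ab1 moved up to second place. There Cd74 was at 40.0 ± 9.47 TPM and H2-Ab1 at 24.0 ± 6.87 TPM, with overlapping ranges. H2-DMb1 followed at 6.38 ± 1.35 TPM and H2-DMa at 2.95 ± 0.49 TPM, each apart from its neighbours. H2-DMb2 at 0.516 ± 0.244 and H2-Eb1 at 0.496 ± 0.183 TPM overlapped, H2-Aa at 0.0723 ± 0.0723 TPM lay below both, and Ciita was at 0.

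Ratios of counts within a library do not depend on scaling, so the balance between partner genes was compared on log2 ratios (0.5 added to each count). The ratio of H2-Ab1 to H2-Aa, the chains of I-A, went from 1.75 ± 0.48 to 7.87 ± 1.03 on the log2 scale (SD, n = 4), a difference of 6.12. The 4 LPS libraries all lay above the vehicle libraries, although H2-Aa then rested on 9 counts over the 4 LPS libraries. Two-sided exact permutation gave p = 0.029, the smallest possible, and p = 0.076 after adjustment over the 8 planned ratios. No planned ratio passed the adjustment. H2-DMb1 to H2-DMa, the chains of H2-DM, went from 1.14 ± 0.35 to 0.07 ± 0.36, also without overlap (exact permutation p = 0.029, adjusted p = 0.076). H2-DMb2 to H2-DMb1 differed by 0.39 on the log2 scale (exact permutation p = 0.29, adjusted p = 0.29).

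The other 5 planned ratios did not pass the adjustment either, and those with Ciita rest on zeros. Cd74, H2-DMa and H2-Eb1 relative to H2-Aa differed by 1.73, 1.84 and 1.57 on the log2 scale, with exact permutation p of 0.057, 0.057 and 0.14, adjusted 0.076, 0.076 and 0.16. Ciita to H2-Aa differed by -2.61 (exact permutation p = 0.057, adjusted p = 0.076), where the LPS values are set by the added count, since Ciita had none. The same holds for Nlrc5 to Ciita, which differed by 6.74 (exact permutation p = 0.029, adjusted p = 0.076). A ninth ratio between well-counted genes, H2-Ab1 to Cd74, was chosen after the values were seen. In vehicle replicates 1 to 4 there were 0.0710, 0.0391, 0.0464 and 0.0272 counts of H2-Ab1 for each count of Cd74. In LPS replicates 1 to 4 there were 1.07, 1.05, 0.793 and 0.751. H2-Ab1 thus went from a small share of Cd74 to about the same number of counts, a difference of 4.39 on the log2 scale or 20.9-fold. It restates the values of both genes given above, so it is a description with no test.

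**Figure D3:**
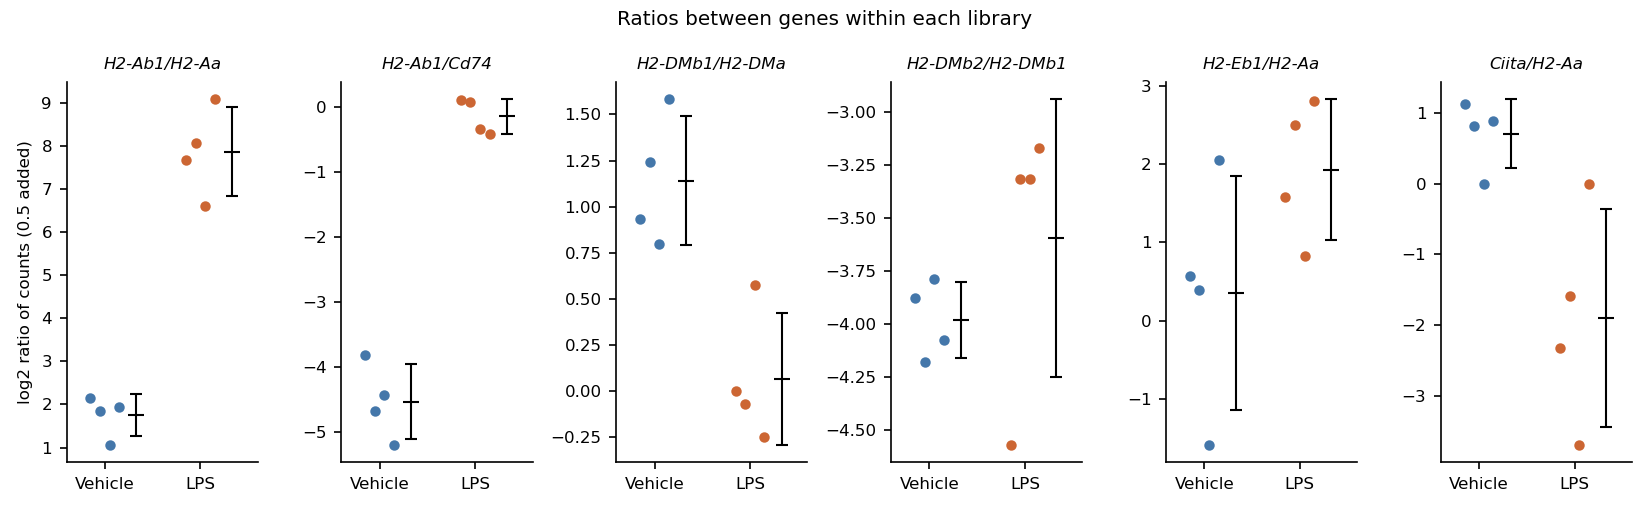
Log2 ratio of counts (0.5 added) between pairs of genes in each library, with the mean ± SD of 4 libraries beside the points, which stand in replicate order. H2-Ab1/H2-Aa, H2-Ab1/Cd74 and H2-DMb1/H2-DMa have no overlap between vehicle and LPS, and the LPS values of Ciita/H2-Aa depend on the added count.

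Promoter sequences from RefSeq (GRCm38.p6, 250 bases before to 50 bases after the start) were matched for 5 of the 8 genes, with 6 records because H2-DMa has 2 starts. They were searched on both strands for the core of the Y box (CCAAT or ATTGG), where NF-Y binds, and a core of the X1 box (AGNAACNG or CNGTTNCT), where RFX binds. The stretches below end shortly after the most upstream Y core in the last 100 bases before the start, and are shown because the paralogs H2-DMb1 and H2-DMb2, and the I-A and I-E chains, can be compared in them. Matched cores are in capitals.
H2-DMb1: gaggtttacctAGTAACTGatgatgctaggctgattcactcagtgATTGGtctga
H2-DMb2: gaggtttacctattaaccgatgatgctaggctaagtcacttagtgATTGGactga
H2-Eb1: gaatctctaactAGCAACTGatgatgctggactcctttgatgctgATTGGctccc
H2-Aa: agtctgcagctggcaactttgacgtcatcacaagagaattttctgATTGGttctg
They lie at chr17:34153085-34153139 on the plus strand, chr17:34145114-34145168 on the plus strand, chr17:34305763-34305817 on the plus strand and chr17:34287862-34287916 on the minus strand, in that order. The Y core begins 61, 90, 59 and 48 bases before the RefSeq start. For H2-DMb1 and H2-DMb2 the GENCODE genes begin further upstream, at 34153072 and 34143307, so their stretches lie inside those gene spans. H2-DMb1 and H2-DMb2 are identical at 49 of 55 positions, yet the X1 core as searched is found in H2-DMb1 and not in H2-DMb2. Both cores at a distance of 10 to 50 bases occurred in H2-Eb1 and H2-DMb1, against 2.19% of all 32851 promoters. A Y core alone is common, in 37.4% of promoters, and an X1 core was in 17.4%. H2-DMa held no core at one start and a Y core 198 bases upstream at the other. A gene with both cores (H2-DMb1) fell, and another (H2-Eb1) was not called. These are matches of letters in a window and say nothing of binding.

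Along chromosome 17 the class II genes lie among genes of class I presentation. H2-Ab1 and its partner H2-Aa start 30.1 kb apart, and H2-Eb1 starts 48.2 kb from H2-Ab1. H2-Ob, the beta chain of the H2-DO heterodimer that inhibits H2-DM, starts 18.8 kb on the other side and had a log2 fold change of 0.15 ± 0.35 (SE, edgeR adjusted p = 0.72). H2-Oa, its alpha chain, had 0.09 ± 0.57 (SE, edgeR adjusted p = 0.89). Between the H2-DM genes and H2-Ob, the peptide transporter genes Tap1 and Tap2 and the immunoproteasome genes Psmb8 and Psmb9 rose. H2-Eb2 had 0 counts in each of the 8 libraries, as did H2-Ea-ps, which is annotated as a polymorphic pseudogene.

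**Figure D4:**
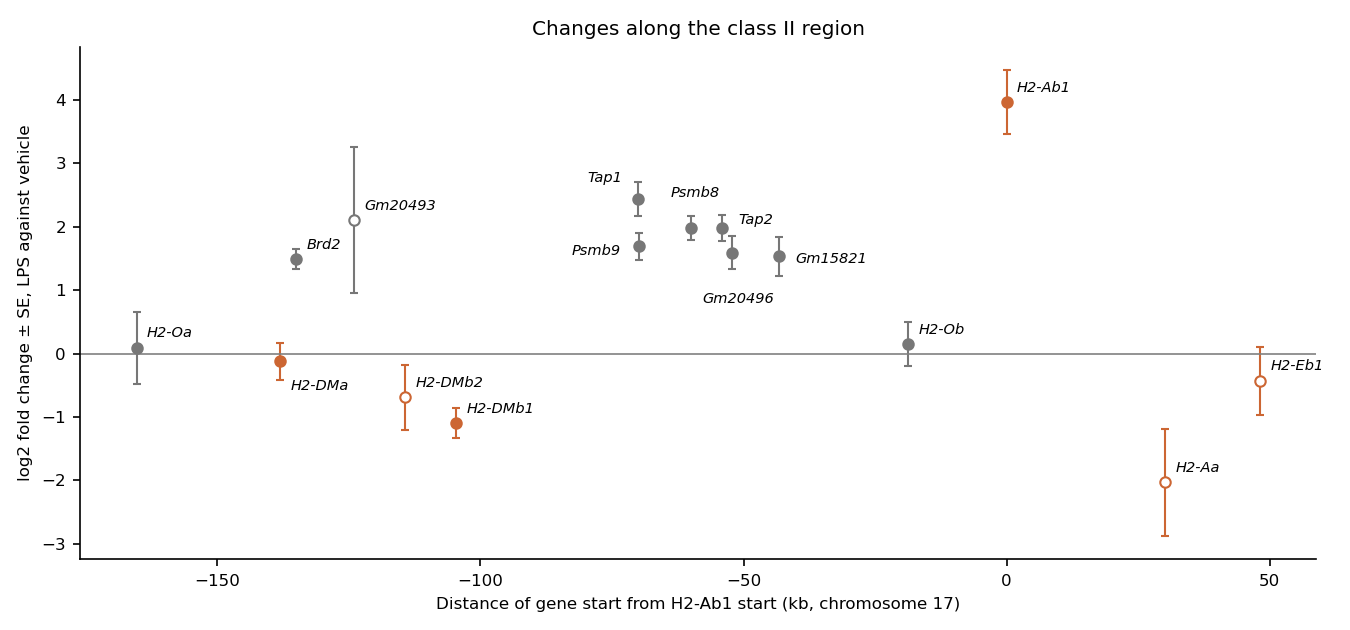
Log2 fold change ± SE of genes with a count along the class II region, against the distance of each gene start from that of H2-Ab1 in kb. Orange points are the class II genes described here, grey points their neighbours, and open points failed the filter on low counts. H2-Ab1 at 3.97 stands above the neighbours on either side, H2-Ob at 0.15 and H2-Aa at -2.03.

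Most genes upstream of Ciita, among them its activators and brakes such as Socs1 and Il10, were higher after LPS, while Ciita was lower. Of 16 listed inputs, 15 were tested, 10 rose and 2 fell, against 30.3% called higher and 33.8% lower among all tested genes. Their median log2 fold change was 0.64, against -0.11 over all tested genes. Ifng, the cytokine that is the classical inducer of Ciita, had 0 counts in each library. Irf1, which acts on the Ciita promoter after interferon gamma, had a log2 fold change of 1.44 ± 0.27 (SE, edgeR adjusted p = 0.0011). Spi1 (PU.1), the myeloid factor, had 0.64 ± 0.20 (SE, edgeR adjusted p = 0.018) and Irf8, another, 0.43 ± 0.18 (SE, edgeR adjusted p = 0.059). The largest rise in the list was that of Il10, an anti-inflammatory cytokine, at 7.78 ± 0.30 (SE, edgeR adjusted p = 1.0e-07), and the largest fall that of Irf4 at -3.84 ± 0.43 (SE, edgeR adjusted p = 4.1e-05). The other fall was that of Ifngr1, a chain of the interferon gamma receptor, at -1.50 ± 0.12 (SE, edgeR adjusted p = 4.9e-06). Ifngr1 was called lower under all 4 scalings. Under upper quartile scaling 8 inputs rose and 2 fell, and Spi1 was not called (0.50, edgeR adjusted p = 0.065). With DESeq2 size factors 12 rose and 2 fell, and Irf8 was called higher (0.48, edgeR adjusted p = 0.045). With library totals alone 5 inputs rose and 4 fell: Irf1 and Il10 still rose, Spi1 was at -0.01 and Irf8 at -0.23.

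Of the 7 listed partner factors of Ciita, Rfxank rose by 0.48 ± 0.12 and Creb1 fell by 0.56 ± 0.15 on the log2 scale (SE, edgeR adjusted p = 0.00605 and 0.00975). The other 5 were not called, among them Rfx5 at -0.24 ± 0.15 (SE, edgeR adjusted p = 0.18). This 1 rise and 1 fall among 7 compare with 30.3% called higher and 33.8% lower of all tested genes. The median of the 7 was -0.12, close to that of all tested genes. Under upper quartile scaling Rfx5 (-0.39, edgeR adjusted p = 0.037) and Rfxap (-0.38, edgeR adjusted p = 0.018) were also called lower, giving 1 rise and 3 falls. With library totals alone 4 fell and none rose, and Rfxank was at -0.20.

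Of 7 antigen processing genes, 1 rose and 3 fell, with a median log2 fold change of 0.01. Among all tested genes 30.3% were called higher and 33.8% lower, so 1 and 3 of 7 are near that background. Ctss, the protease that trims Cd74, was at 0.01 ± 0.17 (SE, edgeR adjusted p = 0.94) and the asparaginyl endopeptidase Lgmn at 0.41 ± 0.22 (SE, edgeR adjusted p = 0.12). Ifi30, the lysosomal thiol reductase GILT, fell by 1.10 ± 0.20 on the log2 scale (SE, edgeR adjusted p = 0.0010). Sppl2a, which degrades the membrane stub of Cd74, rose by 1.27 ± 0.13 (SE, edgeR adjusted p = 2.1e-05), and the protease Ctsd fell by 1.45 ± 0.17 (SE, edgeR adjusted p = 6.5e-05). With library totals alone 1 rose and 4 fell, Ctss being called lower (-0.66, edgeR adjusted p = 0.0018) and Lgmn at -0.26. Among the 4 genes of class II surface turnover, March1, the ligase that marks surface class II for degradation, rose by 2.56 ± 0.22 (SE, edgeR adjusted p = 7.2e-06). Cd9 fell by 2.27 ± 0.20 (SE, edgeR adjusted p = 8.65e-06), and so did Cd83, which opposes March1. Of these 4, 1 rose and 2 fell, also near the share among all tested genes, with a median of -0.90. With library totals alone March8 was called lower as well.

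Class I presentation moved as a group. All 10 listed genes rose, against 30.3% of all tested genes. Their median log2 fold change was 1.87, with Tap1 highest at 2.44 ± 0.27 (SE, edgeR adjusted p = 3.5e-05). With library totals alone 9 of 10 rose, all but Psmb10. Nlrc5 rose by 2.23 ± 0.19 (SE, edgeR adjusted p = 7.7e-06), while Ciita went to 0. The class I heavy chain H2-K1 rose by 2.06 ± 0.17 (SE, edgeR adjusted p = 6.8e-06). The costimulatory genes Cd40, Cd80 and Cd86 all rose, with Cd40 highest at 4.31 ± 0.40 (SE, edgeR adjusted p = 1.3e-05).

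**Figure D5:**
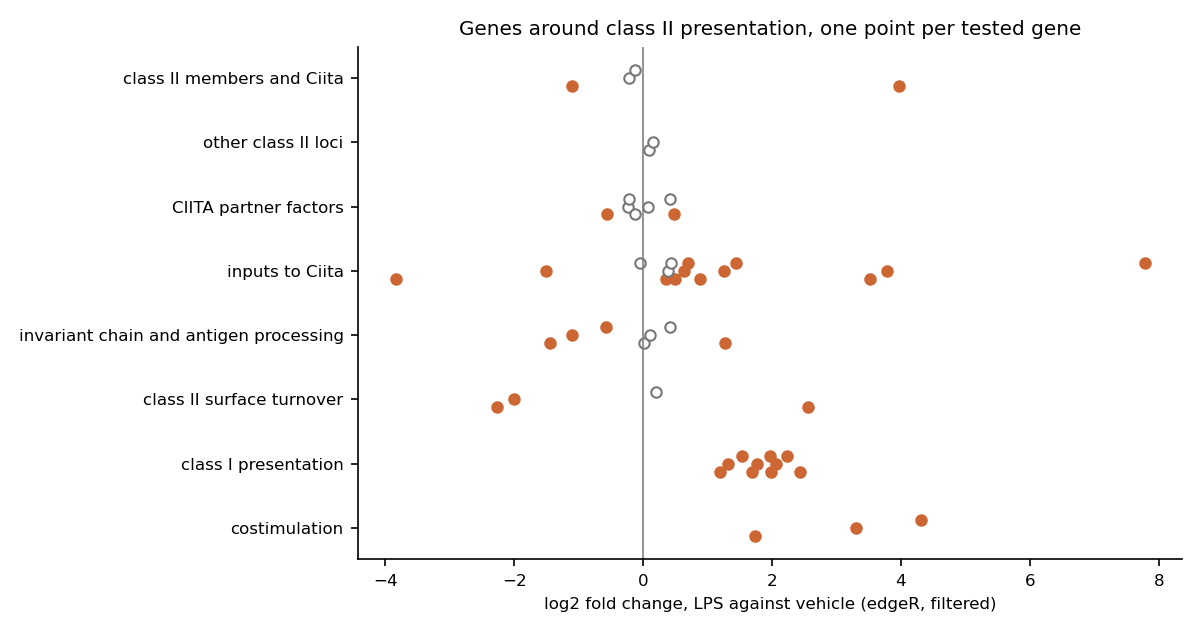
Log2 fold change (edgeR, TMM) of every tested gene in 8 groups around class II presentation. Filled points have an adjusted p under 0.05 and open points do not. All 10 class I genes lie to the right of 0, and of the 4 tested class II members 1 lies far right at 3.97 and the others at or left of 0.

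Microglial markers were well expressed in vehicle libraries, with a summed level of 9372 to 11388 CPM for 8 genes, and 1788 to 2053 CPM after LPS. Of these 8 genes 7 fell, against 33.8% called lower among all tested genes, led by Cx3cr1 at -7.26 ± 0.22 (SE, edgeR adjusted p = 3.8e-08). Markers of other cells were unevenly detected. Of the 5 B cell markers 2, of the 8 dendritic cell markers Flt3 and Cd209a, and all 6 T and NK cell markers had at most 3 counts in every library. Others were counted: the dendritic cell markers Itgax, Zbtb46 and Batf3 had 359 to 1382, 52 to 76 and 22 to 51 counts in vehicle libraries, and Xcr1 92 to 380 after LPS. The dendritic cell list (8 genes, 4 tested) had 1 gene higher and 3 lower, against 30.3% and 33.8% of all tested genes. Its sum was 16.9 to 51.3 CPM in vehicle and 10.2 to 27.2 CPM after LPS. Xcr1 was at 4.11 ± 0.49 and Zbtb46 at -4.17 ± 0.54 (SE, edgeR adjusted p = 6.5e-05 and 0.00011). Most of the dendritic cell sum in vehicle libraries was Itgax, at 12.7 to 48.3 CPM. In vehicle replicates 1 to 4 that sum was 51.3, 23.4, 25.3 and 16.9 CPM, so it was highest in replicates 1 and 3, as were 7 of the 8 class II genes. The sums of the B cell, T and NK cell, monocyte and neutrophil, and costimulation lists were highest in the same vehicle replicates. Those of the microglia, border macrophage, and astrocyte and OPC lists were not. The T and NK cell sum rested on at most 2 counts of any gene in a library. The part of dendritic cells in the class II values was not tested.

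Border macrophages, which can carry class II, had markers at unlike levels. In vehicle libraries Mrc1 was at 523 to 940 CPM, Ms4a7 at 339 to 666 CPM and Pf4 at 23.5 to 64.5 CPM. Cbr2 was at 0.355 to 3.01 CPM there, while Cd163 had 7 to 22 counts and Lyve1 0 to 1. That list (6 genes, 4 tested) had 1 rise and 2 falls, near the 30.3% called higher and 33.8% lower of all tested genes. Cbr2 was at 2.22 ± 0.58 and Mrc1 at -4.07 ± 0.24 (SE, edgeR adjusted p = 0.0076 and 8.7e-07). The sum of the list was 902 to 1675 CPM in vehicle and 542 to 975 CPM after LPS. The part of border macrophages in the class II values was not tested. The 5 B cell markers summed to 0.567 to 1.08 CPM in vehicle and 0.757 to 1.61 CPM after LPS, with Ms4a1 at 1.91 ± 0.44 (SE, edgeR adjusted p = 0.0037). Monocyte and neutrophil markers summed to 1.88 to 3.11 and 3.47 to 4.29 CPM, with none called among the 1 tested. Astrocyte and OPC markers summed to 14.7 to 41.4 and 33.5 to 104.7 CPM, where Gja1 rose by 5.79 ± 0.49 and Cspg4 fell by 4.11 ± 0.41 (SE, edgeR adjusted p = 7.1e-06 and 2.1e-05).

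The variation between libraries of one group was shared by several class II genes. Over the 8 libraries, with each group centred on its mean, the genes most like the mean of Cd74, H2-Aa, H2-Ab1 and H2-Eb1 among 11090 genes were Emilin2, Gm2a, Card6, Birc3 and Pacs1, with Pearson r of 0.98, 0.98, 0.96, 0.96 and 0.96. This is a description of 8 libraries that share their depth and scaling. Emilin2, Card6 and Birc3 had log2 fold changes of 1.93, 0.96 and 2.36 after LPS, and Gm2a and Pacs1 of -1.46 and -1.10, so genes that follow the class II genes within a group moved either way between the groups. Among the class II genes themselves, the centred values of Cd74 correlated with those of H2-Aa at r = 0.97, of H2-Ab1 at 0.93 and of H2-Eb1 at 0.43 (8 libraries). Ciita does not vary between LPS libraries and is left out here.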

How the data were processed

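RNA of primary mouse microglia treated for 24 h with LPS or vehicle (4 libraries each) was read in 50-base single-end reads. The authors aligned reads to GRCm38 with GSNAP, kept unique reads and deposited raw counts per Ensembl gene, counted with HTSeqGenie. The annotation release and strand setting are not given in the sources used here, and the labels and methods name different kits and sequencers. Symbols, lengths and positions came from GENCODE vM21.

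All genes were fitted with edgeR 4.0.16 (TMM, filterByExpr minimum count 10 and total 15, two-sided quasi-likelihood F test) under R 4.3.3, with Benjamini-Hochberg adjustment and a threshold of 0.05, after a test on simulated data. Genes failing the filter were read from a fit of all genes with a count. CPM used TMM-scaled sizes, and TPM the union of annotated exons of each gene. Ratios were tested by exact permutation of 70 divisions. Alternatives were DESeq2 1.42.0, other scalings and filters, a replicate block, and each library left out. Depth was 20071921 to 30604447 counts. Limits cover counting error only.

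The members, lists and tests were chosen with earlier results of these data known. The named genes were all members, 15 genes by name (of the listed genes, some count in the lists but are not reported singly here), the largest rise and fall of each list, and the 5 most alike. Brd2, Cd83, Ifngr1, Rfxap, March8, Itgax, Batf3, Ms4a7, Pf4, Cd163, Lyve1, Gfap, Aqp4 and neighbours in the region were named after their values were seen. Same-numbered libraries deviated together (8382 genes, r = 0.36, 0.18, 0.18 and 0.11 for replicates 1 to 4), all over 0.1, so numbers were taken as pairs in the block, though replicates 2 and 4 exchanged gave 0.14 and 0.12. Python 3.11.15 and matplotlib drew the tables and figures.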

Additional observations from a re-analysis of the deposited data

Results flagged for a closer look

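Of 34 groups of 4 values checked, 1 held a library far from the rest. The log2 ratio of H2-DMb2 to H2-DMb1 in LPS replicate 1 was -4.57, whereas the other LPS libraries lay between -3.32 and -3.17, a gap of 0.90 of the group's range, above Dixon's critical value. It rests on 2 counts of H2-DMb2 in that library. Chance flags about 1 in 20 groups.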

How the results depend on the processing

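Leaving out each library in turn, the log2 fold change of H2-Ab1 lay between 3.69 and 4.46, and of H2-DMb1 between -1.28 and -0.97. These 2 calls held, as did that of Ciita. It lay between -0.42 and 0.072 (without vehicle replicate 3) for Cd74, -0.26 and 0.12 for H2-DMa (0.070 without vehicle replicate 1), -0.62 and 0.077 (without vehicle replicate 1) for H2-Eb1, -0.99 and -0.41 for H2-DMb2 and -3.04 and -1.37 for H2-Aa, which was called lower without vehicle replicate 4 or LPS replicate 3. With library totals alone, chosen after seeing the data, 1988 genes were higher and 8457 lower, and Cd74 (-0.89), H2-DMa (-0.78), H2-Aa (-2.67) and H2-DMb2 (-1.34) were called lower. With the replicate block H2-Aa (-2.13) was called, and the H2-Ab1 to Cd74 ratio, chosen after its values were seen, kept its difference of 4.39, which 4 pairs could not take past the threshold. The block changed no other call. The cause of these shifts was not tested. The other alternatives (DESeq2, its size factors, upper quartile, an adjusted p of 0.01, and an added count of 1 for ratios) kept the direction and call of the 8 genes and of the planned ratios. The other filters were run for the 4 genes that passed the filter, and kept theirs. All 30 counts of called genes under settings other than library totals alone were within 1.5 times the main count. Upper quartile scaling and DESeq2 size factors changed calls of some genes of the lists, given with them. Low counts of H2-Aa, H2-Eb1, H2-DMb2 and Ciita limit what can be seen in them. With 4 against 4 libraries no exact p is below 0.029.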
